A study of Rattus norvegicus with 4 samples.

Results

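The genes described here are 10 that handle fatty acids and lipoproteins in glia. They were chosen by symbol from the table of gene counts, 1 row each, out of 21648 gene identifiers: Fabp3, Fabp5 and Fabp7, Acsbg1, Acsl3 and Acsl6, Scd2, Apoe, Clu and Abca1. They were measured by RNA sequencing in rat cortical cells taken at embryonic day 18, plated in STEMdiff Neural Induction Medium and then kept in BrainPhys medium with SM1 supplement. There were 2 libraries of cells given topotecan, an inhibitor of topoisomerase I, and 2 libraries of cells given DMSO, the solvent. The cells are labelled as neurons, came from the supplier BrainBits and carry no genetic change that the labels name. The drug was given to lower the expression of long genes, at a dose and for a time that the labels do not state. The topotecan libraries held 31181382 and 25459488 gene counts and the DMSO libraries 27347410 and 22957786. Nothing in the labels says that the 2 libraries of a group came from separate cultures, so p-values measure the spread between these libraries, which may be technical.

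Fatty acids are poorly soluble, and fatty acid binding proteins carry them through the cytosol. Acyl-CoA synthetases then join a fatty acid to coenzyme A, the form in which it is burnt or built into membranes, and desaturases add an unsaturated bond to it. In the brain, astrocytes are a main source of lipoprotein particles built around apolipoprotein E. The transporter Abca1 loads cholesterol and phospholipid onto them, and neurons and other cells take them up through lipoprotein receptors.

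The 10 genes parted into 3 kinds of behaviour. Acsbg1, Fabp7 and Apoe were nearly gone from the topotecan libraries, at 0.12%, 0.147% and 0.196% of their fitted DMSO level. Abca1, Acsl6 and Scd2 fell to 10.04%, 22.0% and 37.3% of it. Clu fell slightly, to 84.1%, Fabp5 rose to 174%, and Fabp3 and Acsl3 did not pass the test. Thus 7 of the 10 fell and 1 rose, counting genes whose adjusted p in edgeR's quasi-likelihood fit was under 0.05. Of all 12162 genes with a test, 23.5% fell and 16.2% rose, or 39.7% in either direction. All 10 passed the filter on low counts. Fabp7, Apoe and Abca1 passed it through their DMSO libraries, as their lowest topotecan counts, 6, 9 and 7, were under the minimum of 10. The median log2 fold change was -1.80 over the 10 genes and -0.01 over all genes tested. The 10 genes were chosen with earlier results of these data known, so these contrasts are not those of a set chosen blind. The values of the topotecan libraries lay outside those of the DMSO libraries for all 10 genes, Fabp3 and Acsl3 included. This was so for 70.6% of all genes tested, with topotecan below DMSO in 36.9% and above it in 33.7%, against 8 and 2 of the 10 genes. Together the 10 genes took 0.266% and 0.282% of the counts in topotecan, against 0.601% and 0.630% in DMSO. In RNA from whole cultures, fewer cells of a type and less RNA per cell cannot be told apart.

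**Figure D1:**
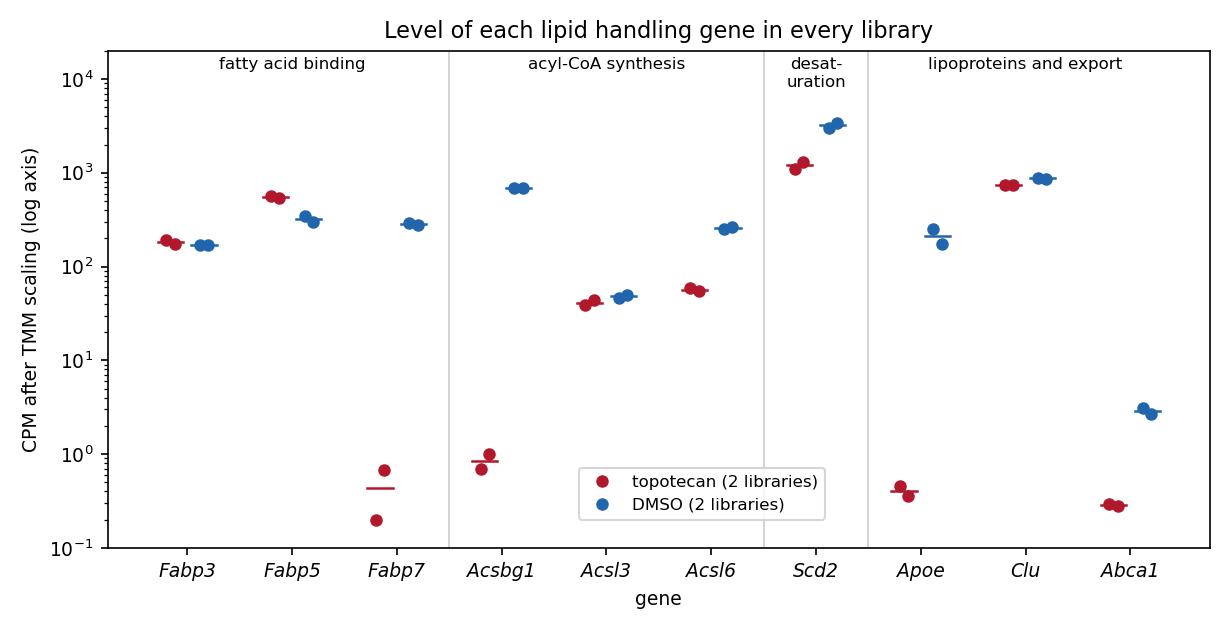
Level of the 10 genes in CPM after TMM scaling (y axis, logarithmic), grouped by role along the x axis, with topotecan in red and DMSO in blue. Points are libraries, 2 per group, and short lines are group means. Fabp7, Acsbg1, Apoe and Abca1 lie at 0.991 CPM or less in both topotecan libraries, while Fabp3, Acsl3 and Clu lie close to their DMSO level.

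Among the fatty acid binding proteins, each of the 3 genes behaved differently. Fabp7, the brain form that marks radial glia and astrocytes, had 6 and 17 counts in the topotecan libraries and 7989 and 6481 in the DMSO libraries. In CPM, the counts set relative to library size with TMM scaling, this was 0.196 and 0.674 in topotecan against 290 and 278 in DMSO, so the groups lay far apart and the topotecan libraries differed more, in proportion, than the DMSO libraries. The log2 fold change was -9.41 (SE 0.20, edgeR adjusted p = 2.8e-13), which ranked 20 from the lowest among the 12162 genes. The summed counts of 23 in topotecan and 14470 in DMSO, set relative to the scaled library sizes, made a level 690-fold lower in topotecan. The exact 95% binomial interval, from 460 to 1089, covers counting error only. Leaving out topotecan replicate 1 gave a log2 fold change of -8.70, and leaving out topotecan replicate 2 gave -10.46. Both lie outside the 95% interval of the edgeR fit on all libraries, from -9.84 to -8.97. The SE was larger by DESeq2 (0.74) and by limma-voom (0.43), so the edgeR SE may be too small.

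Fabp5, the epidermal form, which is also made by neurons and glia, moved the other way. It stood at 570 and 540 CPM in topotecan and at 342 and 296 CPM in DMSO. Both topotecan libraries were higher, with a log2 fold change of 0.80 (SE 0.08, edgeR adjusted p = 5.0e-06), or 1.74-fold. Fabp3, the heart form, which neurons also make, had 190 and 174 CPM in topotecan and 169 and 168 CPM in DMSO. Its log2 fold change of 0.11 (SE 0.08, edgeR adjusted p = 0.30) did not pass, with a 95% interval from -0.06 to 0.29. The ratio of Fabp7 to Fabp5 counts inside a library does not depend on how libraries are scaled. On the log2 scale, with 0.5 added to each count, it was -11.39 and -9.60 in topotecan and -0.24 and -0.09 in DMSO. The ratio of Fabp5 to Fabp3 was 1.59 and 1.63 in topotecan and 1.02 and 0.82 in DMSO. Both ratios separated the groups, and with 2 libraries against 2 the exact permutation test (2-sided) gave its smallest possible p of 0.333 for each. Of 10 such ratios between the genes and with Scd, 9 separated the groups, each with a Benjamini-Hochberg adjusted permutation p of 0.37. The share of all gene pairs that separate was not computed, and of single genes tested 70.6% did.

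The bases upstream of Fabp7 and Fabp3 are shown because these are the member of the family that fell furthest and one that did not pass. They are from RefSeq on GRCr8, the 250 bases before the gene's start as that table gives it, written 5′ to 3′ in the gene's direction, and 8 of the 10 genes had an entry (not Fabp5 and Clu). Capitals mark matches, on either strand, to 4 short motifs, and the share of all 33469 such windows that hold each is given beside it. They were the core promoter motif TATAAA (12.9%) and the core of sites for NFI factors, which reads TTGGCA (12%). The core of sites for nuclear receptors, which reads AGGTCA (14.1%), and that for SOX factors, which reads AACAAT (10.3%), were the other two.
Fabp7 (chr20:37669356-37669605, plus strand): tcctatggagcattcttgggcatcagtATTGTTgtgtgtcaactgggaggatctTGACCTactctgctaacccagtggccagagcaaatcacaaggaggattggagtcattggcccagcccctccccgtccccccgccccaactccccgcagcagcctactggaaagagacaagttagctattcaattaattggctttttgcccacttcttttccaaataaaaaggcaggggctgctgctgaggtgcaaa
Fabp3 (chr5:147935875-147936124, plus strand): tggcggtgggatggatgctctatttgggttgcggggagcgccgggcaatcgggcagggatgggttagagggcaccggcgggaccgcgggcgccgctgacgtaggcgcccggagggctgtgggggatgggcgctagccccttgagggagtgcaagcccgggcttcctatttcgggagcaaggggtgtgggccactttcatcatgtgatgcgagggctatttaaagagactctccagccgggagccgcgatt
The Fabp7 window held 1 SOX core, at bases -223 to -218 from the start, and 1 nuclear receptor core, at bases -196 to -191, both on the opposite strand and not overlapping. The Fabp3 window held none of the 4 motifs. It had 21 CpG pairs and a GC content of 65.6%, whereas Fabp7 had 3 CpG pairs and 51.6%, close to the median of 51.2% over all windows. These matches describe the letters only.

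The 3 acyl-CoA synthetases also differed. Acsbg1, the bubblegum synthetase for long and very long fatty acids, had 21 and 25 counts in topotecan and 18854 and 16203 in DMSO. That is 0.685 and 0.991 CPM in topotecan against 684 and 694 CPM in DMSO, with both topotecan libraries near 0 and the replicates of each group close together. Its log2 fold change was -9.70 (SE 0.14, edgeR adjusted p = 1.8e-14), rank 14 from the lowest, and the level from summed counts, relative to scaled library sizes, was 836-fold lower in topotecan (exact 95% counting interval 627 to 1142).

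Acsl6, the isoform that favours docosahexaenoic acid and is rich in brain, fell less. It had 58.7 and 54.6 CPM in topotecan and 251 and 264 CPM in DMSO, a log2 fold change of -2.18 (SE 0.09, edgeR adjusted p = 1.4e-10), with no overlap. Acsl3, an isoform of the endoplasmic reticulum and lipid droplets, had 38.6 and 43.7 CPM in topotecan and 46.7 and 49.6 CPM in DMSO. The log2 fold change was -0.23 (SE 0.11, edgeR adjusted p = 0.11), with a 95% interval from -0.46 to 0.01. Inside a library, the log2 ratio of Acsl6 to Acsl3 counts was 0.60 and 0.32 in topotecan and 2.43 and 2.41 in DMSO. The ratio of Acsbg1 to Acsl6 was -6.39 and -5.75 in topotecan and 1.45 and 1.39 in DMSO (exact permutation p = 0.333 for each, the smallest possible).

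The window upstream of Acsbg1, which had the lowest fitted fold change of the 10 genes, was as follows.
Acsbg1 (chr8:63943279-63943528, minus strand): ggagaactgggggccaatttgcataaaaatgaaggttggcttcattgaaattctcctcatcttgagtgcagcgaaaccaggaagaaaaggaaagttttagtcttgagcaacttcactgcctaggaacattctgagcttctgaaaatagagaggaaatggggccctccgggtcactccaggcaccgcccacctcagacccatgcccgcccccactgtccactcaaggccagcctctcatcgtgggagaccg
It held none of the 4 motifs, 6 CpG pairs and a GC content of 52.4%. The windows of Acsl3, Acsl6 and Scd2 held none of them either, with 31, 2 and 9 CpG pairs.

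Scd2, the stearoyl-CoA desaturase that is the main form in rodent brain, fell by a moderate factor. It had 1102 and 1300 CPM in topotecan and 3034 and 3408 CPM in DMSO, and the lowest DMSO value was above both topotecan values. The log2 fold change was -1.42 (SE 0.09, edgeR adjusted p = 1.8e-08). Scd2 alone made up 0.108% and 0.129% of all gene counts in topotecan and 0.306% and 0.347% in DMSO. The related desaturase gene Scd had 60.0 and 93.8 CPM in topotecan and 224 and 226 CPM in DMSO, a log2 fold change of -1.55 (SE 0.15, edgeR adjusted p = 1.8e-06). The log2 ratio of Scd2 to Scd was 4.198 and 3.792 in topotecan and 3.757 and 3.915 in DMSO, so that the groups overlapped (exact permutation p = 0.667). The labels do not say how reads that fit both genes were counted.

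**Figure D2:**
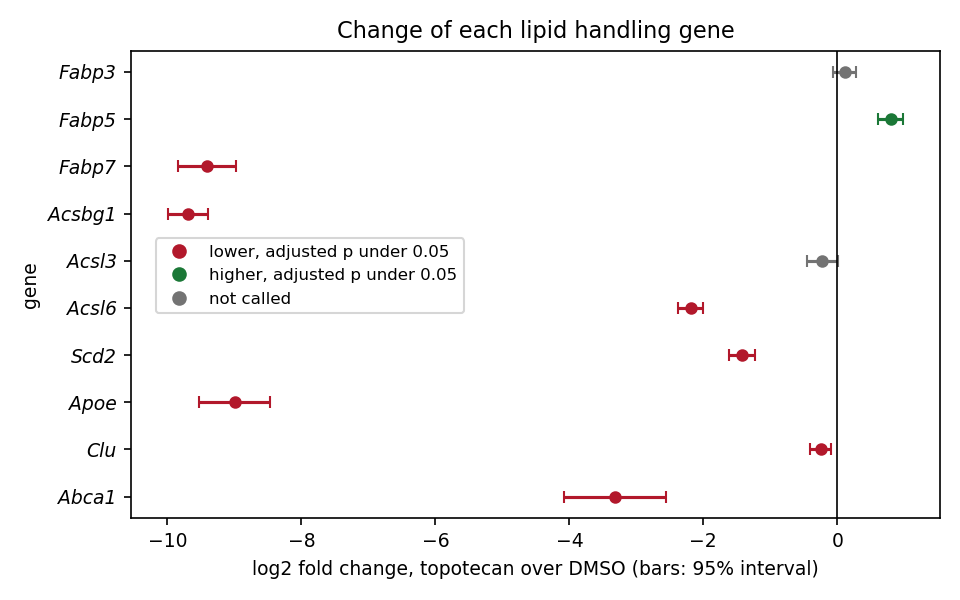
Log2 fold change of topotecan over DMSO (x axis) for each of the 10 genes (y axis), with 95% intervals from the edgeR fit on 2 libraries per group. The intervals of Acsbg1, Fabp7 and Apoe may be too narrow, as DESeq2 and limma-voom gave larger SEs for these genes. Acsbg1, Fabp7 and Apoe lie between -9.70 and -8.99, Abca1, Acsl6 and Scd2 between -3.32 and -1.42, and Fabp5 at 0.80, while the intervals of Fabp3 and Acsl3 include 0.

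Of the lipoprotein genes, Apoe was nearly lost and Clu was nearly kept. Apoe, the apolipoprotein of the particles made by astrocytes, had 14 and 9 counts in topotecan and 6934 and 4030 in DMSO. In CPM this was 0.457 and 0.357 in topotecan and 251 and 173 in DMSO, the widest spread between DMSO libraries, relative to the mean, of the 10 genes. The log2 fold change was -8.99 (SE 0.25, edgeR adjusted p = 2.7e-12), rank 38 from the lowest, and the level from summed counts, scaled in the same way, was 523-fold lower in topotecan (exact 95% counting interval 348 to 825).

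Clu, which codes for clusterin or apolipoprotein J, a secreted chaperone and lipid carrier, had 741 and 735 CPM in topotecan and 889 and 866 CPM in DMSO. The difference was small but above the spread between replicates, with a log2 fold change of -0.25 (SE 0.07, edgeR adjusted p = 0.012). The call was lost without topotecan replicate 1 (adjusted p = 0.10) or without topotecan replicate 2 (adjusted p = 0.12), at nearly the same fold changes of -0.25 and -0.24. The log2 ratio of Apoe to Clu counts was -10.61 and -10.93 in topotecan and -1.82 and -2.33 in DMSO (exact permutation p = 0.333, the smallest possible).

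Abca1, the transporter that exports cholesterol and phospholipid, was low throughout. It had 9 and 7 counts in topotecan and 86 and 62 in DMSO, or 0.294 and 0.278 CPM in topotecan and 3.12 and 2.66 CPM in DMSO. The log2 fold change was -3.32 (SE 0.35, edgeR adjusted p = 5.0e-06), and the level from summed counts, scaled in the same way, was 10.1-fold lower in topotecan (exact 95% counting interval 6.04 to 18.2), the interval being wide because so few reads fell on the gene. Its upstream window was the only one of the 10 windows of the 8 genes with a TATAAA match, at bases -32 to -27 on the gene's own strand.
Abca1 (chr5:72596474-72596723, minus strand): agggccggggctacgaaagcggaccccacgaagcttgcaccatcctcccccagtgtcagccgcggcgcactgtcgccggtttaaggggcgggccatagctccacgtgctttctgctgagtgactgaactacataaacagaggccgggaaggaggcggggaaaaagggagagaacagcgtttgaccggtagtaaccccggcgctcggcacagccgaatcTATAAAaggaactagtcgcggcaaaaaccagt
The first of the 3 Apoe windows held a TTGGCA match at bases -21 to -16, on the opposite strand, and the other windows of Apoe held none of the motifs.

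The span of the genes, taken from RefSeq on GRCr8 and used only as a length, ran from 3.74 kb for Fabp5 to 122.9 kb for Abca1. Apoe spans 3.93 kb, Fabp7 6.18 kb and Acsbg1 56.1 kb, against 122.9 kb for Abca1, the longest of the 10. Fabp5 and Fabp3, at 3.74 and 6.84 kb, are about as short as Apoe and Fabp7. Acsl3 and Acsl6 span 49.5 and 58.8 kb, Clu 39.2 kb and Scd2 13.1 kb. A relation of span to fold change was not tested, over these genes or over all genes.

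Markers of glia moved with the genes that fell. The marker lists here and the pathway lists below were also chosen with earlier results of these data known. All 14 astrocyte markers fell, and their summed level was 798 to 866 CPM in topotecan and 6344 to 6492 CPM in DMSO. The fitted share left in topotecan ran from 0.0655% for Aqp4 to 41.1% for Atp1b2, and none of the 14 was at 0 in both topotecan libraries. The 3 most abundant were Slc1a3, Aldoc and Glul, with log2 fold changes of -7.49, -3.63 and -1.99. Slc1a3, the astrocyte glutamate transporter, had 6.20 and 7.30 CPM in topotecan and 1148 and 1263 CPM in DMSO. Acsbg1, Fabp7 and Apoe thus lay inside the wide range of the astrocyte markers, but below their median share left of 1.99%. Abca1, Acsl6 and Scd2 also lay inside the range, above that median. Clu, Acsl3, Fabp3 and Fabp5, at 84.1% to 174% of DMSO, lay above every astrocyte marker and above every oligodendrocyte marker, of which the highest kept 47.9%. For these 4 genes the name glial rests on where they are known to be expressed, and Clu alone among them was called lower.

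All 12 oligodendrocyte lineage markers fell as well, with a summed level of 126 to 139 CPM in topotecan and 4059 to 4365 CPM in DMSO, and Sox10 was at 0 in both topotecan libraries. Cnp and Mbp, which take part in making myelin, had log2 fold changes of -4.46 and -5.44. Of 8 tested radial glia and progenitor markers 7 fell, and Hes1, at 0.50, did not pass. The fitted share left in topotecan ran from 0.558% for Slc1a3, above Acsbg1, Fabp7 and Apoe, to 141% for Hes1. The list summed to 22.0 to 22.2 CPM in topotecan and 1234 to 1339 CPM in DMSO, where most of it came from Slc1a3, which is also among the astrocyte markers. The other 7 tested genes summed to 15.9 and 14.6 CPM in topotecan and 85.7 and 75.7 CPM in DMSO. Hes5, with 5 and 3 counts in DMSO, was at 0 in both topotecan libraries and too low to test. Microglia also make Apoe. Each of the 11 microglia markers with a row stayed under 20 counts in every library, and 6 of them (Aif1, C1qa, C1qb, C1qc, Cx3cr1 and Tmem119) were at 0 in all 4. Echs1 and Pnpla2, which most cells express, were also listed at 0 in all 4 libraries. The microglia list summed to 0.359 to 0.674 CPM in topotecan and 0.544 to 1.07 CPM in DMSO. Choroid plexus markers summed to at most 0.198 CPM in topotecan and 0.508 CPM in DMSO, endothelial markers to at most 0.555 CPM in topotecan and 2.14 CPM in DMSO, and fibroblast and mural markers to at most 4.72 CPM in topotecan and 9.04 CPM in DMSO. Kdr, Pdgfrb and Postn of these lists fell and Lum rose, by 2.24. Of 15 pan-neuronal markers 6 rose and 3 fell, with a summed level of 28985 to 30088 CPM in topotecan and 23655 to 25704 CPM in DMSO. The 3 most abundant were Tubb3 and Gap43, which rose by 0.35 and 0.26, and Stmn2, which, at 0.04, did not pass. The 3 that fell were Syt1, Rbfox3 and Map2, with log2 fold changes of -1.53, -0.78 and -0.47, and the highest rise was that of Uchl1, at 0.78. What part the share of each cell type had in the changes of the 10 genes was not tested.

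**Figure D3:**
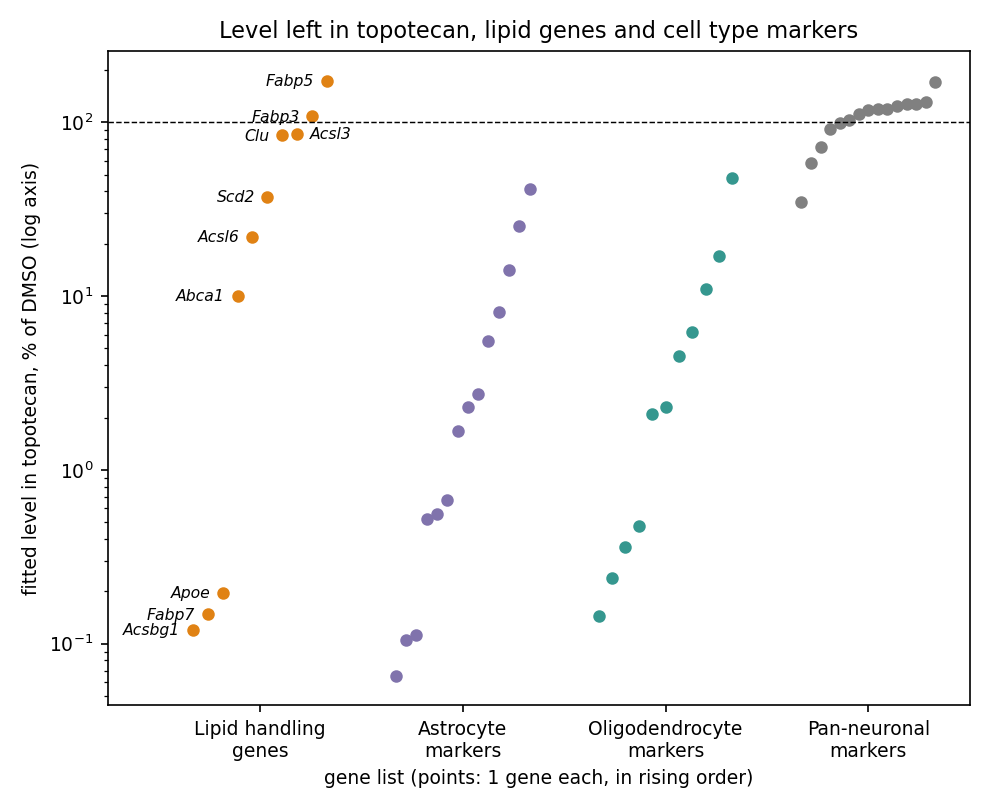
Fitted level in topotecan as a percentage of DMSO (y axis, logarithmic) for the 10 lipid handling genes, 14 astrocyte markers, 11 of 12 oligodendrocyte markers (Sox10, with no topotecan count, is not drawn) and 15 pan-neuronal markers, each point 1 gene in rising order and the dashed line marking no change. Acsbg1, Fabp7 and Apoe lie at 0.12% to 0.196%, within the range of the astrocyte markers, and Clu, Acsl3, Fabp3 and Fabp5 lie above all astrocyte and oligodendrocyte markers.

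Other genes of the same pathways were read from the same fit. The falls and rises counted per list stand beside 23.5% and 16.2% of all genes tested, and no list was tested as a set. In the fatty acid binding family, 6 of 10 genes stayed under 20 counts in each library, and the only one tested besides Fabp3, Fabp5 and Fabp7 was Pmp2, the binding protein of peripheral myelin. Pmp2 had 0 and 5 counts in topotecan and 95 and 132 in DMSO (log2 fold change -5.58, SE 0.56, edgeR adjusted p = 3.0e-06). The family of 4 tested genes thus had 2 falls and 1 rise, with a median of -2.73, or 0.08 under a filter of 100 counts that removes Pmp2. Leaving out topotecan replicate 1 moved it to -2.21, and leaving out topotecan replicate 2 to -4.88. Of 11 tested long-chain acyl-CoA synthetases and fatty acid transport proteins 4 fell and 1 rose, with a median of -0.20. Besides Acsbg1 and Acsl6, the falls were those of Slc27a1 (-2.88, SE 0.18) and Slc27a5 (-4.50, SE 0.38), and Slc27a3 rose by 0.91 (SE 0.20). Acsl1 and Acsl4 had log2 fold changes of -0.20 and -0.13, Slc27a4 one of 0.26, and none of the 3 passed. The rises numbered 2 without DMSO replicate 1, and the median was -0.06 without DMSO replicate 2.

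In fatty acid synthesis, elongation and desaturation 11 of 21 tested genes fell and 1, Elovl4, rose (0.31, SE 0.09), with a median of -0.43. Elovl1, the elongase of very long saturated chains, went furthest, at 4.01 and 3.17 CPM in topotecan and 64.4 and 71.0 CPM in DMSO (log2 fold change -4.22, SE 0.14). Fads1, the delta-5 desaturase, and Acaca, the first enzyme of the synthesis of fatty acids, fell by 0.72 (SE 0.08) and 0.74 (SE 0.13). Acly and Tecr, at 0.19 and 0.11, did not pass. The rises numbered 0 without topotecan replicate 2 and 2 without either DMSO library.

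Several genes that act with Apoe on lipoproteins fell. Of 14 tested lipoprotein, lipase and receptor genes 7 fell and none rose, with a median of -0.20. By edgeR's unadjusted p under 0.05, 1 was higher (Lpl, 0.21), by DESeq2 and limma-voom 0 were, and without DMSO replicate 1 the rises numbered 1. Lcat, the enzyme that esterifies cholesterol on the particles, had 4 and 2 counts in topotecan and 1427 and 1321 in DMSO. Its log2 fold change was -8.92 (SE 0.23, edgeR adjusted p = 1.8e-12), beside -8.99 for Apoe. With so few topotecan counts this value is loosely fixed, and the SE may be too small. Pltp, the phospholipid transfer protein, fell by 3.74 (SE 0.14) and Apod, the glial apolipoprotein D, fell by 2.26 (SE 0.13). The receptor gene Lrp1 fell by 0.57 (SE 0.10) and the lysosomal lipase gene Lipa by 0.33 (SE 0.09). Vldlr and Lrp8, receptors that bind such particles, had log2 fold changes of -0.15 and 0.34 and did not pass.

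Of 11 tested lipid transporters of the ABC family 2 fell, Abca1 and the peroxisomal transporter Abcd3 (-0.40, SE 0.10), and the median was -0.28. None rose by edgeR, DESeq2 or limma-voom, and 0 were higher at an unadjusted edgeR p under 0.05. Abcg1, which also exports cholesterol, was at -0.34 and Abcd2 at -0.28, Abca3 at -0.41 and Abca8a at -0.37, and none of these passed. Falls numbered 1 without topotecan replicate 1 and 4 without DMSO replicate 1. Of 14 tested regulators of the LXR, PPAR and SREBP classes 4 fell and 1 rose, with a median of 0.05, beside the 23.5% and 16.2% of all genes tested. Leaving out topotecan replicate 1 gave a median of 0.19 and leaving out topotecan replicate 2 one of -0.04, and the rises numbered 2 without DMSO replicate 1. Nr1h3, which codes for LXR alpha, a nuclear receptor that switches on Abca1 and Apoe, had 9 and 3 counts in topotecan and 31 and 37 in DMSO (log2 fold change -2.63, SE 0.49). Nr1h2, the other LXR gene of the list, was more abundant, at 27.4 and 30.3 CPM in topotecan and 32.7 and 24.1 CPM in DMSO. Its log2 fold change of 0.02 (SE 0.14, edgeR adjusted p = 0.93) did not pass. Srebf1, the regulator of fatty acid synthesis and of stearoyl-CoA desaturases, fell by 1.61 (SE 0.27). Ppargc1a was at -0.999 (SE 0.15) and Mylip, a ubiquitin ligase induced by LXR, rose by 0.48 (SE 0.16). Srebf2, the regulator of sterol synthesis, was at 0.11 and Insig2 at 0.08, and neither passed.

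Most genes that burn fatty acids fell. Of 19 tested genes of fatty acid oxidation 15 fell and none rose, with a median of -1.59. By edgeR's unadjusted p under 0.05, 1 was higher (Cpt1c, 0.18), by DESeq2 and limma-voom 0 were, and without DMSO replicate 2 the rises numbered 1. Cpt1a, which admits fatty acids to mitochondria, had 0.848 and 1.07 CPM in topotecan and 47.9 and 57.0 CPM in DMSO (log2 fold change -5.78, SE 0.18). Cpt2, Acadl and Decr1, enzymes of the same route, had log2 fold changes of -5.09 (SE 0.18), -4.28 (SE 0.16) and -4.03 (SE 0.16). Hadha and Hadhb, the subunits of the trifunctional protein, fell by 0.91 (SE 0.08) and 0.47 (SE 0.08). Cpt1c, the form of neurons, had 179.7 and 182 CPM in topotecan and 154 and 165 CPM in DMSO and did not pass. Of 11 tested genes of lipid droplets and sterol storage 4 fell and 3 rose, with a median of 0.06. The falls were Soat1 (-2.66, SE 0.17), Mgll (-1.54, SE 0.12), Npc2 (-1.10, SE 0.09) and Npc1 (-1.07, SE 0.14), and the rises Plin2, Dgat1 and Abhd5, by 0.40, 0.58 and 0.29. These 3 rises were not called without topotecan replicate 1. Without that library the list's median was -0.38, without DMSO replicate 1 it was 0.29, and without DMSO replicate 2 it was -0.11. Dgat2, at 0.21, did not pass. The lists share members with the 10 genes, and the glial markers fell in the same libraries, and their part in the counts was not tested.

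**Figure D4:**
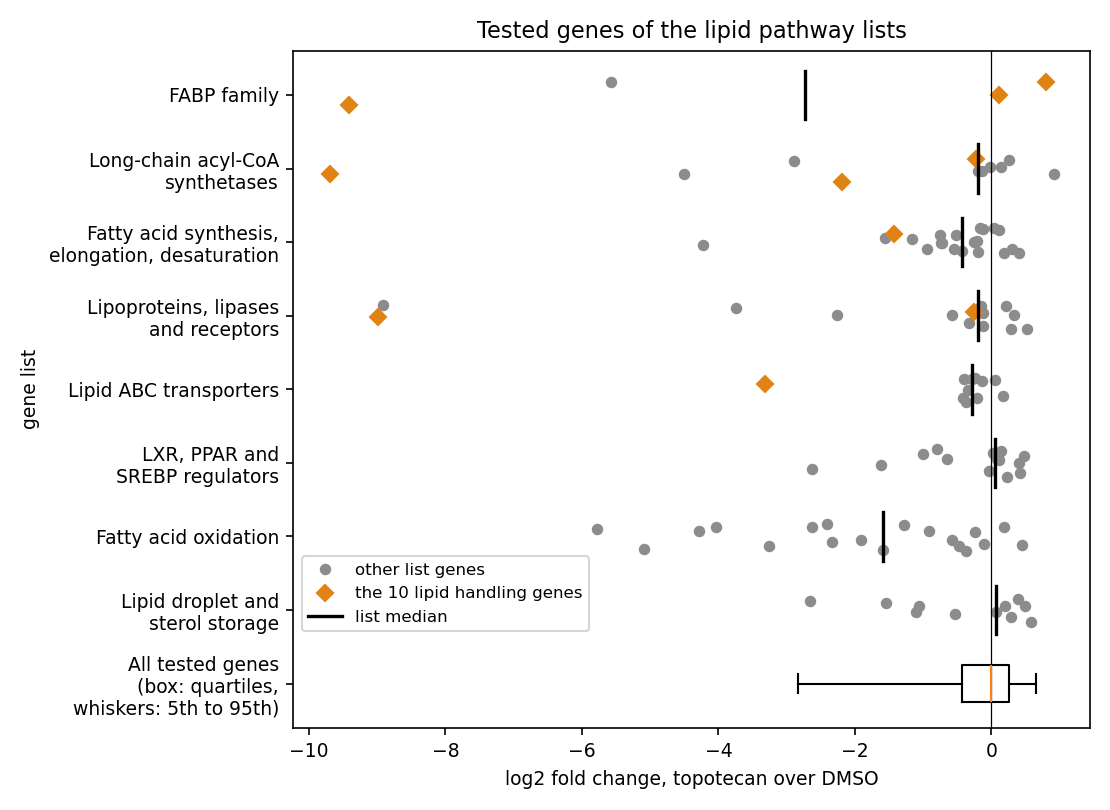
Log2 fold change of topotecan over DMSO (x axis) for every tested gene of the 8 lipid pathway lists (y axis), with the 10 lipid handling genes as orange diamonds, other genes as grey points and list medians as black bars; the box at the bottom shows all 12162 tested genes. The oxidation list has the widest shift below 0 outside the small binding protein family, with a median of -1.59, while the medians of the other 6 lists lie between -0.43 and 0.06.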

How the data were processed

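RNA of 2 topotecan and 2 DMSO libraries was analysed, grouped and numbered by title. The values are gene counts, whole numbers that the authors deposited unscaled under Ensembl identifiers. STAR and edgeR are named, without versions, per the submitters' processing notes. The sources used here do not name the build, annotation, counter or strand setting, so overlapping genes can share reads. Per the labels' protocols the library kit was one for small RNA. The table's 22641 rows held 21648 identifiers, each counted once.

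Genes were tested with edgeR 4.0.16 in R 4.3.3 by the quasi-likelihood fit, after TMM scaling and filterByExpr (minimum count 10, minimum total 15). This kept 12162 genes, with 2 residual degrees of freedom, and the Benjamini-Hochberg adjustment ran over every one. The fit also pools the spread over genes, so its p-values and intervals use more degrees of freedom than these 2. SE was taken as the size of the log2 fold change over root F. For Fabp7, Acsbg1 and Apoe it was smaller than the SE of DESeq2 and of limma-voom. Those were 0.74 and 0.43 for Fabp7 (edgeR 0.20), 0.23 and 0.27 for Acsbg1 (edgeR 0.14), and 0.34 and 0.58 for Apoe (edgeR 0.25). The edgeR SEs and intervals of these genes may therefore be too narrow. Chi-square per degree of freedom between replicates was 9.34 in topotecan and 13.0 in DMSO, where sampling noise alone gives about 1. Scripts were checked on simulated counts. Protein identities, planned at first, were not computed.

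The 10 genes and all lists were chosen with earlier results of these data known. Beyond the 10, the rule for naming genes was, in each pathway list the 4 of smallest adjusted p and the 2 most abundant, and in each cell type list the 3 most abundant. Some genes the rule names are not reported here. Aqp4, Atp1b2, Elovl4, Echs1, Pnpla2, Lrp8, Vldlr, Abcg1, Nr1h2, Cpt1c, Plin2, Dgat1, Abhd5, Sox10, Hes1, Hes5, Syt1, Rbfox3, Map2, Uchl1 and the microglia markers at 0 were named after their values were seen. Alternatives were other scalings (DESeq2 size factors, upper quartile, library totals, pan-neuronal genes), other count filters, DESeq2 1.42.0, limma-voom (limma 3.58.1), a replicate block, and each library left out.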

Additional observations from a re-analysis of the deposited data

How the results depend on the processing

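The 10 genes kept their direction under all alternatives, and 7 fell and 1 rose under each scaling, test and the replicate block. Clu lost its call without either topotecan library (adjusted p from 0.0041 to 0.12 over its alternatives). Abca1 was removed by a filter of 100 counts in 2 libraries, which left 6 falls. No scaling moved the median of all genes by more than 0.04 on the log2 scale. Over all genes, 2854 fell and 1970 rose, and leaving out each library gave 1208 (topotecan replicate 1) to 2470 rises. With the replicate block, 2746 fell and 1822 rose. For deviations from the group means, same-numbered libraries had r = -0.04 across 12162 genes. With 2 libraries per group, the crossed pairing gives the same size with the opposite sign (0.04). The check therefore cannot say whether a number marks a shared culture or batch. The block changed no call of the 10 genes.

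Small list counts moved. With upper-quartile factors the rises were 2 for synthetases, 1 for lipoprotein genes and 1 for oxidation. Without a count filter 3 synthesis genes rose. With the filter of 100 counts the falls were 1 in the binding protein family and 2 among regulators, as fewer genes were tested. With DESeq2 0 regulators rose. Leaving out each library gave 1 to 2 rises for synthetases, 0 to 2 for synthesis, 0 to 1 for lipoprotein genes, 1 to 2 for regulators, 0 to 1 for oxidation and 0 to 4 for droplets, and 1 to 4 falls for transporters. The cause was not tested, beyond fewer samples. Few counts limit the values of Abca1, Pmp2, Nr1h3, Slc27a5 and Kdr, and the topotecan levels of Fabp7, Acsbg1 and Apoe, which rest on 23 to 46 counts. The topotecan level of Lcat rests on 4 and 2 counts.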
